A study of Homo sapiens with 8 samples.

Results

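Integrins are the receptors by which cells hold on to the extracellular matrix and to other cells. The 10 integrin subunits described here are 7 alpha subunits (ITGA2, ITGA3, ITGA4, ITGA5, ITGA6, ITGAV and ITGAX) and 3 beta subunits (ITGB1, ITGB3 and ITGB4), picked by their gene symbols from the 27946 genes of the table, with the transcript of the highest mean level standing for each gene. All 10 had values, and all were among the 13790 genes with a level of 0.5 FPKM or more in 2 or more libraries. ITGA4 reached it only in 2 libraries of ΔSE12313-b, so a higher level there was a condition of its being tested, and its difference from that group is given as values only. FPKM are the reads on a transcript per kilobase of its length, scaled to the reads of the library, so genes can be set side by side. Between libraries this scaling leaves shifts shared by many genes in place. The median log2 change against control over all genes tested was 0.14 in ΔE2 and 0.27 in ΔSE12313-b.

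RNA was taken from EA.hy926, an immortal line made by fusing umbilical vein endothelial cells with A549 lung carcinoma cells. Clonal lines had lost either E2, an enhancer within the super-enhancer SE12313 on chromosome 16 (genotype ΔE2, 3 libraries), or SE12313-b, a neighbouring element without activity in the reporter assay of the study (genotype ΔSE12313-b, 3 libraries), after delivery of Cas9 protein with guide RNAs. The comparison group was 2 libraries with the genotype Control. All cells were grown in the same medium, and each library of a deletion came from its own clone. For its proliferation assay the study describes the controls as cells given guide RNAs and kept alongside the clones, and the sources used here do not state whether the control libraries were made from these cells, from clones or from a pool. Neither deletion lies in a gene of the table, so no row shows it directly. ADAMTS18 is the gene that this super-enhancer is taken to regulate. It was at 0.68 and 0.86 FPKM in the controls, between 0.087 and 0.15 in ΔE2 and between 0.13 and 0.23 in ΔSE12313-b.

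An integrin is a pair of 1 alpha and 1 beta subunit, and the pair decides what is bound. ITGB1 pairs with most alpha subunits. With ITGA2 it binds collagen, with ITGA3 or ITGA6 laminin, with ITGA5 fibronectin, and with ITGA4 fibronectin and the endothelial adhesion molecule VCAM1. ITGAV pairs with ITGB3 or ITGB5 and binds vitronectin and other proteins that carry an arginine-glycine-aspartate motif, ITGA6 with ITGB4 anchors epithelial cells in hemidesmosomes, and ITGAX (CD11c) pairs with ITGB2 on myeloid cells. In endothelium, ITGB1, ITGA5, ITGAV and ITGB3 are best known for their part in the spreading of vessels over fibronectin and vitronectin.

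Libraries held between 12067555 and 19101164 reads, and the 9 members other than ITGA4 had between 78 and 12744 reads in each library. Of 15 endothelial markers, 12 had a mean of at least 1 FPKM in the controls, PECAM1 and CDH5 among them, while CLDN5 was listed at 0 in all 8 libraries. The epithelial keratins KRT7, KRT8 and KRT18 were present too, with a summed level of 360.3 to 362 FPKM in the controls, 1084 to 1210 in ΔE2 and 811 to 1069 in ΔSE12313-b. The other 9 of the 12 epithelial markers summed to 2.61 to 2.77, 1.86 to 3.03 and 2.06 to 2.11 FPKM, and CDH1, KRT5 and KRT14 were at 0 in every library. Of 12 leukocyte markers, only LAPTM5 and LCP1 had a mean of at least 1 FPKM in any group, PTPRC was between 0 and 0.012 FPKM and SPI1 was at 0 in every library. The part of these marker levels in the comparisons was not tested. The 2 control libraries lay much closer to each other than the clones of a deletion did. The chi-square of their reads was 1.19 per degree of freedom, that between pairs of ΔE2 clones ranged from 4.00 to 20.7 and that between pairs of ΔSE12313-b clones from 8.41 to 22.9. The spread between the controls may thus be technical only. The tests below share 1 spread over the 3 groups, drawn largely from the clones. Their p-values against the controls may therefore not cover how far separate control cultures would differ. In bulk RNA, fewer cells with a transcript and less of it per cell cannot be told apart.

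ITGA2 was called lower in both deletions, and ITGAV was the member with the largest rise in ΔE2. The stretches of 250 bases before their start sites are shown. They were read from GRCh37, the build of the table, on the plus strand and from 5′ to 3′. Capitals mark every match on either strand to any of the 5 short motifs searched: the GC box with the letters GGGCGG, the ETS motif with CCGGAA, the AP-1 motif with TGANTCA, the box named for its letters CCAAT, and the TATA box with TATAAA. No match overlapped another here. ITGA2 lies at chr5:52285156-52390609 in 5q11.2 and the kept ITGAV transcript at chr2:187464932-187545629. The ITGAV window lies before the most upstream ITGAV start in the table.
ITGA2, chr5:52284906-52285155: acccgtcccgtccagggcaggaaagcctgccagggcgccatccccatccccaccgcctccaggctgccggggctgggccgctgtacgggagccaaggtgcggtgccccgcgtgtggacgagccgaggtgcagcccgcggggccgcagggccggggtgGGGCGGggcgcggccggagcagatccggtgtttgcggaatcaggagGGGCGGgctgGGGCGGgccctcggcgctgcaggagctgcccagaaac
ITGAV, chr2:187454540-187454789: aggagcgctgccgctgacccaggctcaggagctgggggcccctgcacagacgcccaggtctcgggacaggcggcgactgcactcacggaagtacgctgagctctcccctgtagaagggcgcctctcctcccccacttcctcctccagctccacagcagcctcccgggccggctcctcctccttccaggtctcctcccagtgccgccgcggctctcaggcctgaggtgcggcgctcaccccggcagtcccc

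The window of ITGA2 held 3 GC boxes, starting 93, 47 and 37 bases before the start site. None of the 5 motifs was found before ITGAV. The GC box was in 4 of the 9 member windows searched (ITGA2, ITGA3, ITGA5 and ITGB3), that of ITGAX not being analysed here, and in 56.3% of the windows of 13785 tested genes. Windows in these counts lie before the kept transcripts, so the ITGAV window counted is not the one printed. The TATA box was found before ITGA6 and ITGB1 (6.78% of all windows) and the AP-1 motif before ITGA4 (4.60%). No searched member window held the ETS motif (19.2% of all windows) or the CCAAT box (33.2%). G+C made up 76.4% of the ITGA2 window and 71.2% of the ITGAV window, and the median over all windows was 62.0%. These matches describe the letters only.

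In the controls the beta subunit ITGB1 had the highest level of the 10, followed by ITGA3 and ITGA5, ITGA2, ITGB3, ITGB4, ITGA6, ITGAX and ITGAV, with ITGA4 near the limit of detection, and no neighbours in this order overlapped over the 2 libraries. In ΔE2, ITGA5 and ITGB1 overlapped at the top, ITGA6 had moved up to the fourth place, and ITGB4, ITGAV, ITGB3 and ITGA2 could not be put in order, since each overlapped the next. In ΔSE12313-b, ITGB1 and ITGA5 overlapped at the top, and ITGB4, ITGA2, ITGB3 and ITGA6 overlapped one another in turn. In all 3 groups ITGA3 was the second or the third, and ITGA4 the last.

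**Figure D1:**
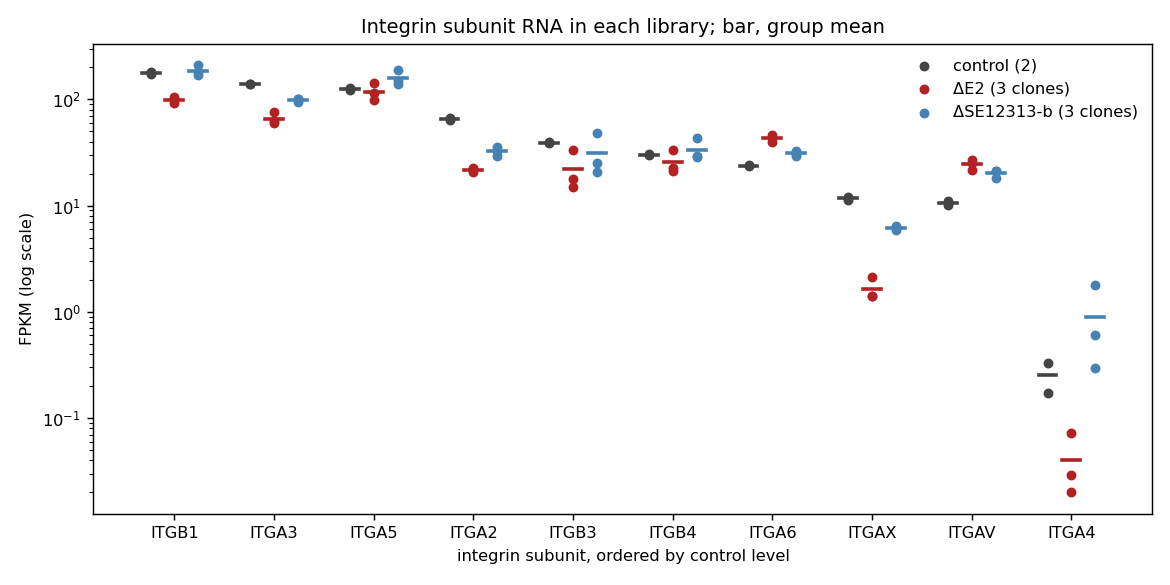
Level of each integrin subunit (FPKM, log scale) in the 2 control libraries, the 3 ΔE2 clones and the 3 ΔSE12313-b clones; points are libraries and bars are group means. ITGAX and ITGA2 lie lower in all 6 clones than in both controls, ITGAV and ITGA6 lie higher in all 6 clones, and ITGB3 and ITGB4 are spread widely among the clones.

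Each member was compared between the groups with limma on log2(FPKM + 0.1), with Benjamini-Hochberg adjustment over the 13790 genes tested. A gene was called differentially expressed at an adjusted p under 0.05 together with a change of at least 2-fold. In ΔE2, 3 members were downregulated (ITGAX, ITGA2 and ITGA3) and 1 was upregulated (ITGAV). Over all genes tested, 8.36% were called lower and 11.2% higher in this comparison. ITGA6 and ITGB1 differed at an adjusted p under 0.05 without reaching 2-fold, which brought the members past that p alone to 6 of 10, against 54.1% of all genes. In ΔSE12313-b, ITGA2 was the only member called, downregulated, where 7.83% of all genes were called lower and 14.7% higher. ITGA3, ITGA6, ITGAV and ITGAX passed the adjusted p without the fold, 5 of 9 in all with ITGA4 set aside, against 59.4% of all genes. The median log2 change was -0.87 over the 10 members in ΔE2 and 0.068 over the 9 without ITGA4 in ΔSE12313-b, beside medians of 0.14 and 0.27 over all genes tested. Both comparisons use the same 2 control libraries.

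**Figure D2:**
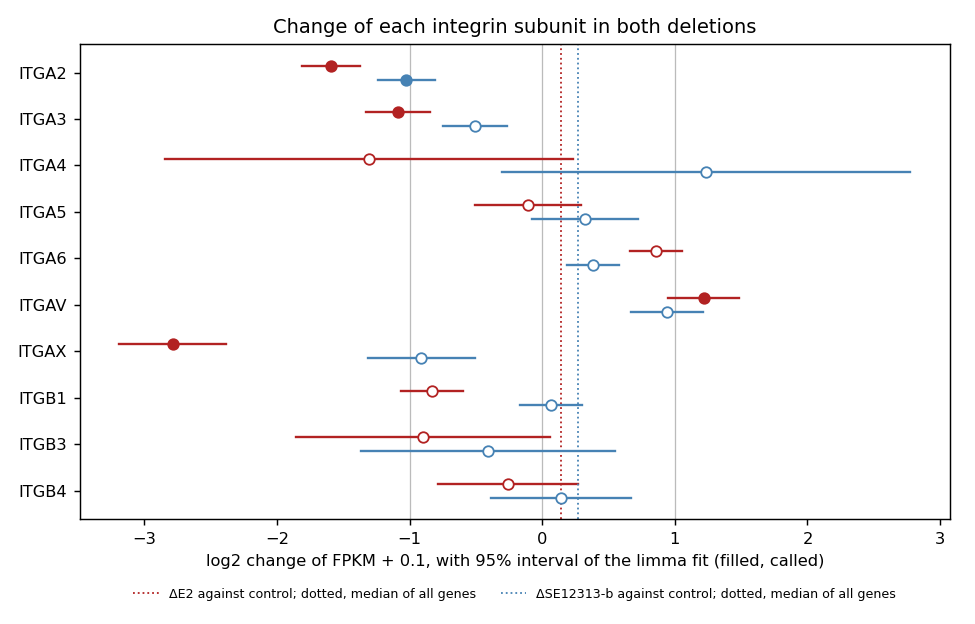
Log2 change of FPKM + 0.1 of each integrin subunit against control, with the 95% interval of the limma fit, in ΔE2 (red) and ΔSE12313-b (blue). Filled points are called, grey lines mark 0 and 2-fold, and the dotted lines mark the medians of all genes, 0.14 and 0.27. ITGAX in ΔE2 stands farthest out at -2.79, and ITGA4 and ITGB3 have the widest intervals. The ITGA4 point in ΔSE12313-b is a value only, since that group let ITGA4 into the test.

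The alpha subunits of collagen and laminin receptors moved in different directions. ITGA2, the collagen-binding subunit, was at 64.4 and 67.2 FPKM in the controls, 20.6, 22.1 and 22.7 in ΔE2 and 29.3, 35.6 and 32.3 in ΔSE12313-b. All 6 clones were below both controls, and the ΔE2 clones were below all ΔSE12313-b clones. It was downregulated in ΔE2 by a log2 change of -1.59 (SE 0.094, limma adjusted p = 7.44e-06) and in ΔSE12313-b by -1.02 (SE 0.094, limma adjusted p = 5.83e-05). The second call stood at the edge of 2-fold and was lost without control replicate 2 (-0.99) or ΔSE12313-b replicate 1 (-0.95).

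ITGA3, which makes a laminin receptor with ITGB1, was at 139 and 140 FPKM in the controls, 59.6, 75.9 and 62.1 in ΔE2 and 99.7, 94.4 and 101 in ΔSE12313-b. The 3 groups did not overlap. Its log2 change was -1.09 in ΔE2 (SE 0.10, limma adjusted p = 9.89e-05) and -0.51 in ΔSE12313-b (SE 0.10, limma adjusted p = 0.00389), and only the first reached 2-fold, although the second was -1.06 and called after quantile normalization. ITGA6, the alpha subunit of the other laminin receptors, went the other way. It was at 24.1 and 23.5 FPKM in the controls, 39.9, 46.3 and 43.4 in ΔE2 and 29.4, 32.9 and 30.7 in ΔSE12313-b, again without overlap between the groups. The log2 change was 0.86 in ΔE2 (SE 0.085, limma adjusted p = 1.14e-04) and 0.38 in ΔSE12313-b (SE 0.085, limma adjusted p = 0.00552), both under 2-fold. The value in ΔSE12313-b was -0.061 after quantile normalization, so its direction depends on the scaling.

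ITGAV and ITGA5 bind matrix proteins with an arginine-glycine-aspartate motif. ITGAV was at 10.0 and 10.9 FPKM in the controls, 21.6, 25.4 and 26.8 in ΔE2 and 21.1, 21.4 and 18.2 in ΔSE12313-b. All 6 clones were above both controls, with the ΔE2 clones above all ΔSE12313-b clones by a narrow margin. ITGAV was upregulated in ΔE2 by a log2 change of 1.22 (SE 0.12, limma adjusted p = 9.40e-05), and the value of 0.97 after quantile normalization was under 2-fold. In ΔSE12313-b the change was 0.94 (SE 0.12, limma adjusted p = 2.74e-04), which also stood close to 2-fold and passed it without control replicate 2 (1.00) or ΔSE12313-b replicate 3 (1.01). ITGA5, the main fibronectin receptor subunit, was at 129 and 123 FPKM in the controls, 99.3, 142 and 114 in ΔE2 and 148, 139 and 190 in ΔSE12313-b. The ΔE2 clones lay on both sides of the controls and the ΔSE12313-b clones above them, with log2 changes of -0.10 (95% interval -0.50 to 0.30) and 0.32 (-0.078 to 0.72) that did not pass the test. The sign of the second value turned under quantile normalization.

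ITGAX and ITGA4 are the alpha subunits that are best known from leukocytes. ITGAX was at 12.1 and 11.2 FPKM in the controls, from 632 and 555 reads. It was at 1.41, 2.11 and 1.40 FPKM in ΔE2, from 110, 148 and 78 reads, and at 5.95, 6.11 and 6.43 FPKM in ΔSE12313-b, from 392, 371 and 419 reads. The 3 groups did not overlap and followed the order control, ΔSE12313-b, ΔE2. The fall in ΔE2, a log2 change of -2.79 with a 95% interval of -3.19 to -2.38, was the largest of any member in either deletion (SE 0.17, limma adjusted p = 1.05e-05). In ΔSE12313-b the change was -0.91 (SE 0.17, limma adjusted p = 0.00256), under 2-fold as deposited and past it when each library was centred on its median ratio (-1.20). ITGB2, the partner that ITGAX needs to reach the cell surface, had between 3 and 6 reads in each library, at most 0.14 FPKM, so RNA of the beta partner was close to undetectable in all 3 groups.

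ITGA4 was near the limit of detection. It had 16 and 29 reads in the controls, 0.17 and 0.33 FPKM. It had 4, 9 and 2 reads in ΔE2 (0.029, 0.073 and 0.020 FPKM) and 71, 32 and 204 reads in ΔSE12313-b (0.61, 0.30 and 1.78 FPKM). The ΔE2 clones were below both controls, while the ΔSE12313-b clones overlapped them and differed among themselves by a factor of 5.94. The change in ΔE2 against control did not pass the test, at -1.31 (95% interval -2.85 to 0.23, limma adjusted p = 0.131). In ΔSE12313-b the value was 1.24, given without a test because that group let ITGA4 into it. With 2 to 9 reads in the ΔE2 clones, the depth does not show how far the level lay below that of the controls. The change in ΔE2 was called with a pseudocount of 0.01 (-2.45). The value in ΔSE12313-b was 1.75 without ΔSE12313-b replicate 2, from the libraries that let ITGA4 into the test.

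Of the beta subunits, ITGB1 passed the adjusted p in ΔE2 and none did in ΔSE12313-b. ITGB1, the common partner of most alpha subunits, was at 174 and 179 FPKM in the controls, 92.8, 104 and 101 in ΔE2 and 181, 168 and 209 in ΔSE12313-b. All ΔE2 clones were below every other library, while the ΔSE12313-b clones spanned the controls. The log2 change in ΔE2 was -0.83 (SE 0.10, limma adjusted p = 3.15e-04), under 2-fold as deposited, and -1.23 and called after quantile normalization. In ΔSE12313-b it was 0.068 (95% interval -0.17 to 0.30, limma adjusted p = 0.584), and that sign turned when the libraries were centred (-0.22), quantile normalized (-0.49) or used without ΔSE12313-b replicate 3 (-0.018).

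ITGB3, the partner of ITGAV in the vitronectin receptor, was at 38.5 and 39.4 FPKM in the controls, 15.1, 33.7 and 17.8 in ΔE2 and 25.2, 20.6 and 48.7 in ΔSE12313-b. All ΔE2 clones were below the controls, but replicate 2 stood well above the other two. The log2 changes of -0.90 (95% interval -1.86 to 0.059, limma adjusted p = 0.1004) and -0.41 (-1.36 to 0.55, limma adjusted p = 0.424) did not pass the test. The first was called without ΔE2 replicate 2 (-1.24, limma adjusted p = 0.0242) and after quantile normalization (-1.23, limma adjusted p = 0.0349). ITGB4, the hemidesmosome subunit, was at 29.8 and 30.3 FPKM in the controls, 22.5, 33.3 and 21.1 in ΔE2 and 28.9, 29.3 and 42.9 in ΔSE12313-b. Both sets of clones spanned the controls, with log2 changes of -0.26 (95% interval -0.78 to 0.27) and 0.14 (-0.39 to 0.67). The sign of the second turned when the libraries were centred (-0.15) or quantile normalized (-0.31), or without ΔSE12313-b replicate 3 (-0.043).

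The clones of a deletion differed from each other in a set of members. ΔE2 replicate 2 had the highest level of its group for 8 of 10 members, all but ITGA2 and ITGAV, and ΔSE12313-b replicate 3 for 7 of 10, all but ITGA2, ITGA6 and ITGAV. The same 2 clones stood apart over all genes. Pairs with ΔE2 replicate 2 had a chi-square of 20.7 and 16.3 per degree of freedom, against 4.00 for the other pair. Pairs with ΔSE12313-b replicate 3 had 16.7 and 22.9, against 8.41. The share of all genes highest in each clone was not counted, so these counts do not set the members apart. ITGB3 had the widest spread of the well-measured members, with a ratio of the highest to the lowest clone of 2.24 in ΔE2 and 2.36 in ΔSE12313-b, and ITGB4 followed at 1.58 and 1.48. ITGA2 spanned only 1.10-fold and 1.21-fold. The ratio between the controls was at most 1.09 for every member but ITGA4, for which it was 1.91. Across the 8 libraries, which share their group structure, Pearson's r of log2 levels was 0.98 between ITGA3 and ITGAX, 0.94 between ITGA2 and ITGA3, 0.90 between ITGA5 and ITGB4 and between ITGA6 and ITGAV, and -0.94 between ITGA2 and ITGAV and between ITGA6 and ITGAX. These correlations describe the 8 libraries and carry no test.

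Compared directly, the 2 deletions differed in 5 of the 9 members other than ITGA4 at an adjusted p under 0.05, where 26.0% of all genes did. Of these, ITGAX was called lower in ΔE2 (2.63% of all genes were called lower) and none was called higher (1.60% of all genes). The log2 difference of ΔE2 from ΔSE12313-b was -1.87 for ITGAX (SE 0.16, limma adjusted p = 4.47e-04). For ITGA4, which the minimum level admitted through ΔSE12313-b, the value was -2.54, and -0.79 with a pseudocount of 1. ITGB1 was lower in ΔE2 by -0.90 (SE 0.090, limma adjusted p = 8.60e-04), ITGA3 by -0.58 (limma adjusted p = 0.00399) and ITGA2 by -0.57 (limma adjusted p = 0.00288), and ITGA6 was higher by 0.48 (limma adjusted p = 0.00387), all short of 2-fold. For ITGAV the difference of 0.28 (95% interval 0.038 to 0.52) had an adjusted p of 0.0861 in limma, and those of ITGA5, ITGB3 and ITGB4 also missed the threshold, with intervals of -0.78 to -0.068, -1.35 to 0.36 and -0.87 to 0.074. The median difference over the 9 was -0.49, and over all genes tested -0.11.

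The make-up of the 7 alpha members shifted with these changes. Because FPKM are scaled per length, the level of each subunit can be given as a share of the summed FPKM of the 7 alpha members. ITGA3 made up 36.9% of that sum in the controls, 23.9% in ΔE2 and 28.3% in ΔSE12313-b. ITGA5 made up 33.4%, 42.8% and 45.5%, so that it took the place of ITGA3 as the most abundant alpha transcript in all 6 clones. The share of ITGA2 was 17.4% in the controls and lay between 7.03% and 10.8% in the clones. The share of ITGA6 was 6.30% in the controls, 15.8% in ΔE2 and 8.96% in ΔSE12313-b. For ITGAV it was 2.78%, 8.97% and 5.87%. ITGAX made up 3.10% in the controls, 0.589% in ΔE2 and 1.78% in ΔSE12313-b. The sums were 377 FPKM in the controls, 276 in ΔE2 and 348 in ΔSE12313-b. These shares are descriptions, without a test.

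**Figure D3:**
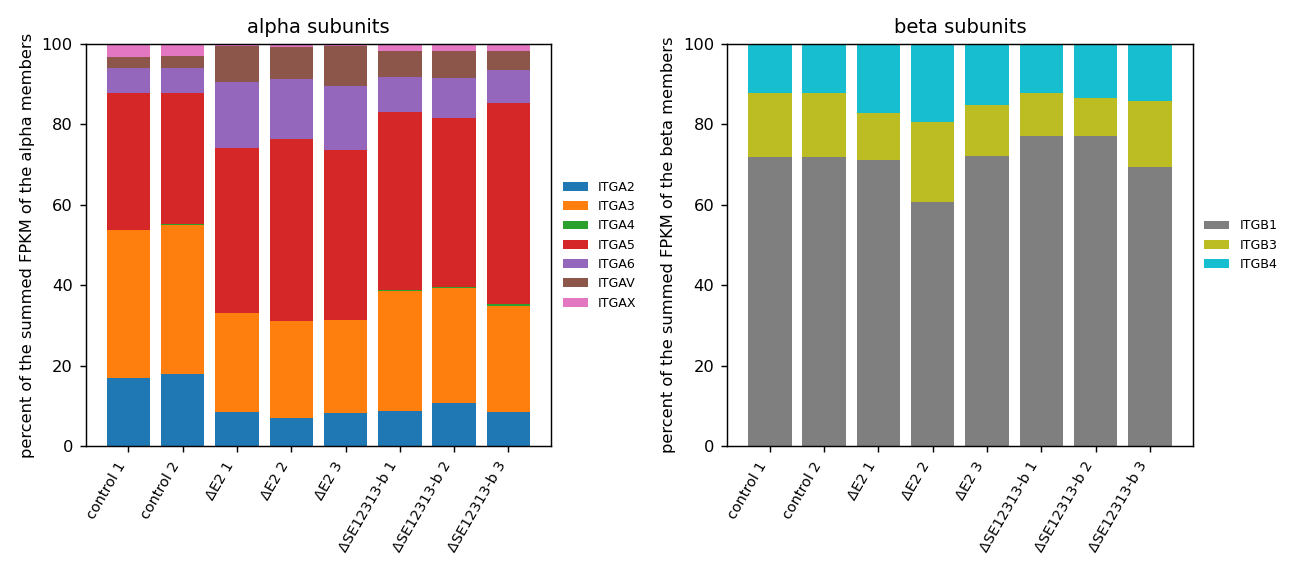
Percent of the summed FPKM of the 7 alpha members (left) and the 3 beta members (right) in each of the 8 libraries. ITGA2 and ITGA3 together narrow in all 6 clones, while ITGA6 and ITGAV widen most in the ΔE2 clones, and ITGB1 stays the largest beta subunit throughout.

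The summed FPKM of the 3 beta members was 246 in the controls, 147 in ΔE2 and 251 in ΔSE12313-b. ITGB1 made up 72.0%, 68.1% and 74.5% of it, ITGB3 15.8%, 14.6% and 12.1%, and ITGB4 12.2%, 17.3% and 13.3%. ITGB5, at means of 37.8, 43.9 and 58.7 FPKM in the same groups, is not part of these sums. The ratio of ITGA6 to ITGB4, which pair in hemidesmosomes, was 0.81 and 0.77 in the controls, 1.77, 1.39 and 2.05 in ΔE2 and 1.02, 1.12 and 0.72 in ΔSE12313-b. The ratio of ITGAV to ITGB3 was 0.26 and 0.28 in the controls, 1.43, 0.75 and 1.504 in ΔE2 and 0.84, 1.04 and 0.37 in ΔSE12313-b. The first ratio was higher in every ΔE2 clone than in any other library, and the second was higher in all 6 clones than in the controls. That did not hold for ITGAV and its other partner, ITGB5. The ratio of ITGAV to ITGB5 was 0.27 and 0.29 in the controls, 0.59, 0.45 and 0.69 in ΔE2 and 0.34, 0.48 and 0.26 in ΔSE12313-b. The ΔE2 clones lay above the controls in this ratio, and the ΔSE12313-b clones overlapped them. ITGA5 to ITGB1 stood at 0.74 and 0.69 in the controls, 1.07, 1.36 and 1.13 in ΔE2 and 0.82, 0.82 and 0.91 in ΔSE12313-b, without overlap between the groups.

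Every tested transcript of a member had nearly the same log2 change as the kept one. All 6 transcripts of ITGA2 were called lower in ΔE2, at -1.59, the 3 of ITGAV lay between 1.20 and 1.22, and the 2 of ITGAX between -2.80 and -2.79. Transcripts of 1 gene share most of their reads, so this is no independent evidence. Of the members, ITGB1 overlaps the small nucleolar RNA gene SNORA86 on its own strand, which reached 133 FPKM, ITGB3 overlaps THCAT158 on the opposite strand, at most 0.36 FPKM, and ITGA4 overlaps CERKL on the opposite strand, listed at 0.

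Each member was set beside the tested genes within 5 Mb of it, to see whether its stretch of the chromosome moved with it. In ΔE2 the 121 genes around ITGAX had a median of -0.36 on the log2 scale, and their medians in the single clones were -0.30, -0.35 and -0.29. Of them 21 were called lower and 5 higher, and 0 of 121 lay below ITGAX. In ΔSE12313-b the same genes had a median of 0.17, with 23 of them below ITGAX. The stretch around ITGAX thus stood on the same side as ITGAX in ΔE2, and its part in the fall of ITGAX was not tested. ITGAX, in 16p11.2, is the only member on chromosome 16, which also carries both deletions. Any part of this shared chromosome was not tested either.

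Around the other members the medians lay between 0 and 0.31 in ΔE2 and between 0.28 and 0.61 in ΔSE12313-b, beside 0.14 and 0.27 over all genes. Around ITGA2 the 21 tested genes had medians of 0.21 in ΔE2 and 0.36 in ΔSE12313-b, and 0 and 2 of them lay below ITGA2. Around ITGAV, 30 of 31 genes lay below ITGAV in ΔE2 and 25 of 31 in ΔSE12313-b. ITGB1 had neighbours with a median of 0 in ΔE2 and of 0.61 in ΔSE12313-b, the highest median around any member. ITGA6 had neighbours with medians of 0.31 and 0.40, and within 2 Mb of 0.52 and 0.63. The 91 genes around ITGA3 and the 153 around ITGB3, both on chromosome 17, had medians of 0.13 and 0.10 in ΔE2.

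**Figure D4:**
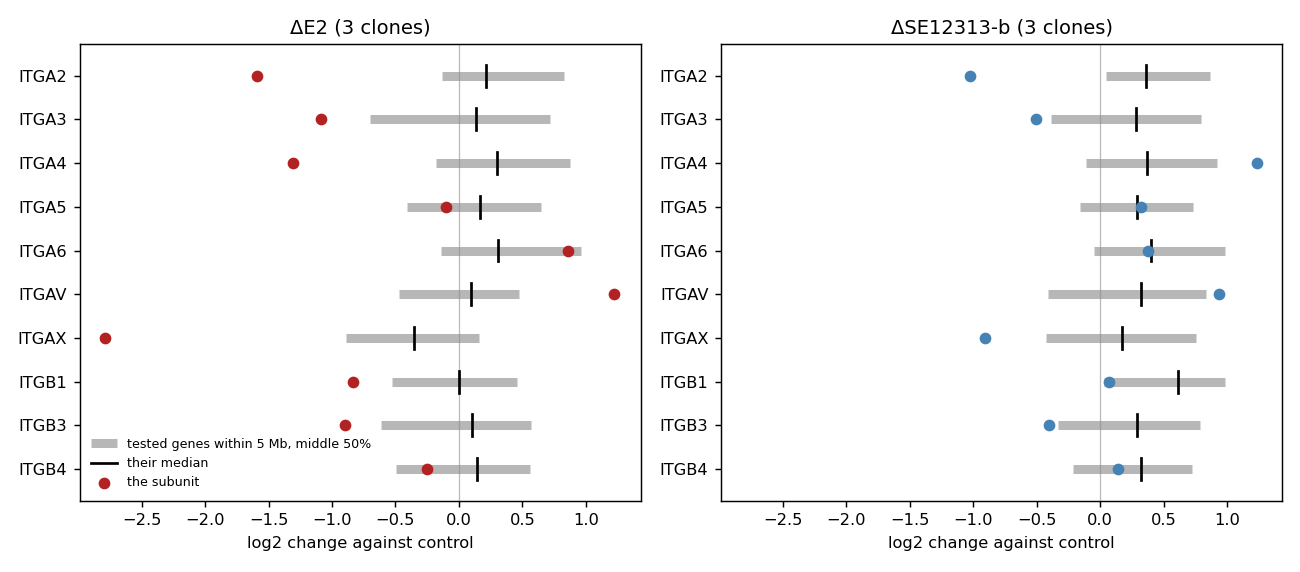
Log2 change against control of each integrin subunit (point) beside the tested genes within 5 Mb of it (grey bar, middle 50%; black line, median), in ΔE2 (left) and ΔSE12313-b (right). The genes around ITGAX have a median of -0.36 in ΔE2, the lowest in either panel. ITGA2, ITGA3, ITGAV, ITGAX and ITGB3 lie outside the grey bars in both panels, as does ITGA4, whose level in ΔSE12313-b was a condition of its test. Each bar leaves out 50% of the neighbours, so lying outside it does not set a subunit apart.

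By Pearson's r of log2(FPKM + 0.1) over the 8 libraries, the genes most like ITGAX, the member with the largest fall, were MME (0.996), PEX5 (0.995) and PAM (0.993). MME is a membrane metallopeptidase, PEX5 a receptor for import into peroxisomes and PAM an enzyme that amidates peptides. Those most like ITGAV were COPB1 (0.998), a subunit of the vesicle coat COPI, DDB1 (0.994), an adaptor of a ubiquitin ligase, and NRDC (0.993), a metalloendopeptidase. Such values were common in these libraries, since 444 of 13789 genes reached an r above 0.9 with ITGAX and 1648 with ITGAV.

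The remaining 16 integrin subunit genes were mostly below the minimum level. Of them, 6 were tested (ITGA1, ITGA10, ITGA11, ITGAE, ITGB5 and ITGB8), and ITGA10 was downregulated in both deletions. ITGA10, a second collagen-binding partner of ITGB1, was at 25.1 and 24.8 FPKM in the controls, 2.94, 10.6 and 2.99 in ΔE2 and 2.48, 3.17 and 8.86 in ΔSE12313-b. All clones were below the controls, with ΔE2 replicate 2 and ΔSE12313-b replicate 3 above the others of their group. The log2 changes were -2.43 (SE 0.66, limma adjusted p = 0.0150) and -2.57 (SE 0.66, limma adjusted p = 0.0104). Both calls were lost when either control was left out, with adjusted p between 0.0587 and 0.0783 in limma, and the call in ΔE2 also without ΔE2 replicate 3 (0.0501). ITGA11, another collagen receptor subunit, had 51 and 45 reads in the controls, between 4 and 10 in ΔE2 and between 1 and 6 in ΔSE12313-b. It met the minimum level through the controls alone, so its log2 changes of -2.22 and -2.60 are given as values only.

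ITGB5, the alternative partner of ITGAV, was at 37.3 and 38.2 FPKM in the controls, 36.5, 56.4 and 38.9 in ΔE2 and 62.6, 44.4 and 69.1 in ΔSE12313-b. It was above ITGB3 in level in all 6 clones, and its log2 changes were 0.19 (limma adjusted p = 0.509) and 0.61 (limma adjusted p = 0.0475), neither of them called. ITGAE, a subunit known from intraepithelial lymphocytes, had log2 changes of 0.87 (limma adjusted p = 0.00256) and 0.34 (limma adjusted p = 0.104). ITGA1 and ITGB8 stayed near or below 1 FPKM and did not pass the test. Of the 10 subunits below the minimum, ITGA8 and ITGB7 had no read in any library, where a count of 0 allows up to 3 reads a library. ITGA2B, the platelet subunit, had 15 and 19 reads in the controls, against 2, 0 and 0 in ΔSE12313-b, at least 7.16-fold lower when each of these libraries is set at 3 reads. ITGAD and ITGAM, which flank ITGAX on 16p11.2, had at most 6 reads in any library.

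Of 41 genes for ligands that integrins bind, 27 were tested, and TNC (tenascin C) and VTN (vitronectin) met the minimum level through 1 group alone. Without a gene that entered through a compared group, 5 of 26 rose and 5 fell in ΔE2, where 11.2% of all genes were called higher and 8.36% lower. In ΔSE12313-b, 2 of 25 rose and 2 fell, where 14.7% and 7.83% of all genes did. FN1, fibronectin, was upregulated in both. Its kept transcript is a short one that covers the 5′ part of the gene, with a mean of 2.37 FPKM in the controls, 9.68 in ΔE2 (log2 change 1.93, SE 0.26, limma adjusted p = 5.59e-04) and 6.06 in ΔSE12313-b (1.32, SE 0.26, limma adjusted p = 0.00315). The 9 full-length FN1 transcripts, which share reads with it, had log2 changes of 1.87 to 1.90 and 1.21 to 1.23. SPP1 (osteopontin), an ITGAV ligand, rose by 1.45 in ΔE2 and by 3.81 in ΔSE12313-b, to means of 29.5 and 147 FPKM from 10.4. CTGF, a matricellular ligand, rose by 2.62 in ΔE2, and its value in ΔSE12313-b was 1.29 (limma adjusted p = 0.0658). THBS1, named here after its values were seen, rose by 1.34 in ΔE2.

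LAMA5, an alpha chain of the laminins that ITGA3 and ITGA6 recognise, was among the ligands that fell. It was at a mean of 115 FPKM in the controls, 25.9 in ΔE2 (log2 change -2.15, limma adjusted p = 7.01e-07) and 31.0 in ΔSE12313-b (-1.90, limma adjusted p = 1.16e-06). COL18A1, a basement membrane collagen, fell by 1.65 on the log2 scale in ΔE2 (limma adjusted p = 4.21e-04) and by 1.05 in ΔSE12313-b, the latter under 2-fold without ΔSE12313-b replicate 2. LTBP1, which stores latent TGF-beta in the matrix, fell by 2.83 in ΔE2, and its value in ΔSE12313-b was -1.09 (limma adjusted p = 0.0519). TNC, admitted through the controls alone, was at a mean of 8.58 FPKM there, 0.20 in ΔE2 and 0.15 in ΔSE12313-b. VTN, admitted through ΔSE12313-b alone, was at means of 0.19, 0.089 and 1.18 FPKM in the controls, ΔE2 and ΔSE12313-b. Without these, the median change of the ligands was -0.34 in ΔE2 and -0.02 in ΔSE12313-b, below the medians of all genes. Between the deletions THBS1 was among the ligands higher in ΔE2, and 4 of 26 were lower (SPP1, LTBP1, ICAM1 and LAMB3).

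Inside the cell, 39 of 43 genes of the integrin adhesion complex passed the filter. In ΔE2, with NEDD9 set aside because ΔE2 alone brought it to the minimum level, 6 of 38 rose and 2 fell, where 11.2% and 8.36% of all genes did. In ΔSE12313-b, 6 of 39 rose, a share near the 14.7% of all genes, and 1 fell. The medians were 0.27 and 0.54, beside 0.14 and 0.27 over all genes. FERMT1, a kindlin that activates integrins by their beta tails, rose from a mean of 4.94 FPKM to 13.7 and 14.1 (log2 changes 1.44 and 1.47). FERMT3, the kindlin of blood cells and endothelium, fell by 3.30 on the log2 scale in ΔSE12313-b, from 15.04 to 1.45 FPKM (SE 0.20, limma adjusted p = 7.62e-06). In ΔE2 it had a log2 change of 0.32 (limma adjusted p = 0.211), and the difference between the deletions was 3.62 (limma adjusted p = 8.24e-05). Both deletions shared the rises of RSU1, a partner of the ILK complex (1.19 in ΔE2 and 1.77 in ΔSE12313-b), ITGB1BP1, which binds the ITGB1 tail (1.21 and 1.36), and TNS1, tensin 1 (1.40 and 1.34). SRC, the kinase downstream of adhesion, and PLEC (plectin), which links ITGB4 to keratin filaments, fell by 1.14 and 1.04 in ΔE2, and PLEC was under 2-fold without ΔE2 replicate 2. In ΔSE12313-b their values were -0.47 (limma adjusted p = 4.88e-04) and -0.31 (limma adjusted p = 0.0767), short of 2-fold. NEDD9, a scaffold of the same pathway, had 3 reads or fewer in each control and was at least 10.6-fold higher in ΔE2 than the level that 3 reads a library would give.

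All 13 membrane proteins listed as associating with integrins were tested. Over all genes, 11.2% were called higher and 8.36% lower in ΔE2, and 14.7% and 7.83% in ΔSE12313-b. CAV1 (caveolin 1) was the only one of the 13 called in either deletion. It rose from a mean of 120 FPKM to 431 in ΔE2 (log2 change 1.81, SE 0.24, limma adjusted p = 4.65e-04) and 280 in ΔSE12313-b (1.20, SE 0.24, limma adjusted p = 0.00304). The second was under 2-fold when the libraries were centred (0.91). CD9, named here after its values were seen, went from a mean of 335 FPKM to 168 in ΔE2, just under 2-fold (log2 change -0.998, limma adjusted p = 6.98e-04). Its value in ΔSE12313-b was -0.16 (limma adjusted p = 0.355). At an adjusted p under 0.05, 7 of the 13 passed in ΔE2 and 8 in ΔSE12313-b, against 54.1% and 59.4% of all genes. The median of the 13 was -0.17 in ΔE2 and 0.23 in ΔSE12313-b, below the medians of all genes.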

How the data were processed

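RNA sequencing of 8 EA.hy926 libraries was used, 2 of control, 3 of ΔE2 clones and 3 of ΔSE12313-b clones, grouped by the genotype in the labels. Total RNA was depleted of ribosomal RNA and sequenced from one end in a strand-specific library. The submitters' processing notes name Trim Galore 0.4.4 and STAR 2.5.4b, and the reads were mapped to GRCh37. The authors deposited FPKM for 65572 RefSeq transcripts of 27946 genes. The study's methods name featureCounts with Gencode annotation for counting, whereas the table lists RefSeq transcripts in a layout like the output of HOMER, and the tool, RefSeq release and strand setting behind its FPKM are not given in the sources used here. All 8 FPKM columns were mapped to samples.

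Each gene was represented by its transcript of highest mean FPKM. The filter asked for 0.5 FPKM or more in 2 or more libraries, and log2(FPKM + 0.1) was then fitted by limma (version 3.58.1, R version 4.3.3; 3 groups in 1 linear model, empirical Bayes with a mean-variance trend, two-sided), with Benjamini-Hochberg adjustment over 13790 genes. A log2 change on this scale understates the change of low genes. The reads behind each FPKM were recovered from the steps between values, whole within 0.1 read for 100% of the values checked. At most 3 reads in each library of a group counted as the floor, and bounds cover counting error only. Depth was 12067555 to 19101164 reads a library. Scripts were checked on simulated data. A few items are not reported here. Plots and tables were made in Python 3.11.15.

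The 10 members and the lists of other integrins, ligands, adaptors, membrane partners and markers were chosen with earlier results of these data known. Genes were named by a rule: every member, every tested integrin and ITGB2, and up to 3 called genes with the largest rise and fall for each list and deletion whose 3 clones lay on 1 side of both controls, and the 3 genes most like the members with the largest rise and fall. Replicate numbers in the labels did not pair the samples. The labels do not say whether the control libraries came from separate cultures, so p-values may measure a spread that is partly technical. Alternatives were other pseudocounts, filters, scalings and thresholds, a replicate block, voom on recovered reads, every transcript, only the groups compared, no trend, and each library left out.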

Additional observations from a re-analysis of the deposited data

Results flagged for a closer look

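The 2 deletions share the same controls, and 6 members were flagged because their change differed between the deletions in the direct test of ΔE2 against ΔSE12313-b by limma. ITGAX had the clearest difference, at -1.87 on the log2 scale, with 1.40 to 2.11 FPKM in the ΔE2 clones and 5.95 to 6.43 in the ΔSE12313-b clones. ITGA4 is listed at -2.54, from 2 to 9 reads in the ΔE2 clones and 32 to 204 in the ΔSE12313-b clones, but it was tested only because ΔSE12313-b libraries met the minimum level, so this value is no support for a difference. ITGB1 differed by -0.90, ITGA3 by -0.58 and ITGA2 by -0.57, all lower in ΔE2, and ITGA6 by 0.48, higher in ΔE2. The clones of the 5 others did not overlap between the deletions, but these 5 were picked by that same test, so this adds no support. ITGAV was not flagged, and its clones did not overlap between the deletions either. Groups of 2 and 3 libraries were too small for a test of single outlying libraries.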

How the results depend on the processing

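Under the alternatives, 597 of 627 single results on the members kept their direction and their side of the threshold. Another 15 gained a call, 6 lost it and 9 turned in sign. The 4 members called in ΔE2, 1 higher and 3 lower, numbered 4 to 6 over the alternatives, with 0 higher and 5 lower after quantile normalization, where ITGAV was under 2-fold and ITGB1 and ITGB3 were called. Sign turned for ITGA5 in ΔE2 without replicate 1 (-0.24 to 0.016 over the libraries left out), and in ΔSE12313-b under quantile normalization for ITGA5 (-0.25), ITGA6 (-0.061), ITGB1 (-0.49) and ITGB4 (-0.31), after centring for ITGB1 (-0.22) and ITGB4 (-0.15), and without replicate 3 for both (-0.018 to 0.14 and -0.043 to 0.24 over the libraries left out). In ΔSE12313-b the median change of all genes was 0.27 as deposited, -0.015 after centring and -0.0091 after quantile normalization. The cause of the turns in sign was not tested.

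The count of 1 member called in ΔSE12313-b was 2 after centring, 3 after quantile normalization, 3 at 1.5-fold and 0 to 2 without 1 library. The 2 members past the thresholds between the deletions, of which ITGA4 was admitted through ΔSE12313-b, were 1 with a pseudocount of 1, with a mean FPKM of at least 1 (which leaves ITGA4 untested), at an adjusted p of 0.01, and 1 to 2 without 1 library. Of the other integrins, the 2 past the thresholds, ITGA11 with its admission through the controls included, were 1 in both deletions with a pseudocount of 1, a mean FPKM of at least 1 or an adjusted p of 0.01, 4 in ΔE2 with every gene above 0 in 2 libraries, and 1 to 2 without 1 library. The counts of ligands and adaptors that follow include TNC, VTN and NEDD9, each admitted through 1 group alone, so they are no support for a difference. Without such genes, 2 ligands rose and 2 fell in ΔSE12313-b, and 2 were higher and 4 lower between the deletions. Adaptors were then 6 higher and 2 lower in ΔE2, and 1 higher and 0 lower between the deletions. Ligands in ΔSE12313-b (6) were 10 under quantile normalization and 10 at 1.5-fold, and between the deletions (7) 3 with a pseudocount of 1 and 12 at 1.5-fold. Adaptors at 1.5-fold were 17 in ΔE2 (9), 19 in ΔSE12313-b (7) and 8 between them (2), the last being 1 with a pseudocount of 1, a mean FPKM of at least 1 or an adjusted p of 0.01, and 1 to 3 without 1 library. Membrane partners in ΔE2 (1) were 4 after centring, under quantile normalization and at 1.5-fold, and 1 to 3 without 1 library. In ΔSE12313-b (1) they were 2 after centring and under quantile normalization, 5 at 1.5-fold and 1 to 2 without 1 library, and between the deletions (0) 3 at 1.5-fold and 0 to 1 without 1 library.

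Replicate numbers gave correlations of deviations between -0.080 and 0.11 for libraries of the same number, so they did not pair the samples. With a replicate block, membrane partners called in ΔE2 were 2, and every call on the members stayed as it was.

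Within 2 Mb in place of 5 Mb, the median of the neighbours in ΔE2 was 0.15 for ITGA2, 0.080 for ITGA4, 0.52 for ITGA6, -0.066 for ITGAV, -0.40 for ITGAX and 0.25 for ITGB4, and in ΔSE12313-b 0.22 for ITGA4, 0.63 for ITGA6, 0.0060 for ITGAV, 0.72 for ITGB1, 0.19 for ITGB3 and 0.39 for ITGB4, from as few as 8 genes. Depth limits ITGA4 most.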

Other observations

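ITGB2-AS1, the antisense gene beside ITGB2, was chosen after its values were seen. It had no read in either control and between 7 and 12 reads in each of the 6 clones (0.16 to 0.33 FPKM), while ITGB2 itself had 3 to 6 reads in every library. ITGB3BP, a centromere protein gene named for binding the ITGB3 tail and chosen in the same way, was at 7.58 and 6.59 FPKM in the controls, 19.1, 18.8 and 21.6 in ΔE2 and 20.2, 21.7 and 17.0 in ΔSE12313-b. All 6 clones lay above both controls for both genes. ITGB3BP had log2 changes of 1.47 in ΔE2 and 1.46 in ΔSE12313-b (limma adjusted p = 5.34e-05 and 4.36e-05), and ITGB2-AS1 was under the minimum level for the test.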
